A study of Homo sapiens with 8 samples.

Results

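The genes described here encode the subunits of RNA polymerase I, II and III (Pol I, Pol II and Pol III). They are the 29 rows of both count tables, of 18638 gene models in all, whose symbol begins with POLR1, POLR2 or POLR3, a rule on symbols alone. Of these, 3 encode subunits found only in Pol I (POLR1A, POLR1B and POLR1E), 2 subunits shared by Pol I and III (POLR1C and POLR1D), 7 subunits of Pol II only (POLR2A, POLR2B, POLR2C, POLR2D, POLR2G, POLR2I and POLR2J), and 10 subunits of Pol III only (among them POLR3A, POLR3B, POLR3E and POLR3G). A further 5 encode small subunits built into all 3 enzymes (POLR2E, POLR2F, POLR2H, POLR2K and POLR2L), and 2 are copies of POLR2J (POLR2J2 and POLR2J3). Subunits listed under the older symbols CD3EAP, ZNRD1, TWISTNB and CRCP lay outside this choice and are given further on as context. POLR2M and POLR2J4 were not analysed here.

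Pol I makes the large ribosomal RNA precursor in the nucleolus, Pol II makes all messenger RNA, and Pol III makes transfer RNA, 5S ribosomal RNA and other small RNAs. Each enzyme has a catalytic core of a largest and a second largest subunit, which form the active site, held on an assembly platform and joined by small subunits common to all 3. Every subunit gene is itself transcribed by Pol II, so a measure of nascent RNA reads the output of Pol II at the genes for all 3 machines.

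Nascent RNA was captured by factory-seq, in which nuclei are digested with DNase I and RNA held at sites of transcription is released with a caspase mix, from 2 human colorectal cancer cell lines. DLD-1 cells were labelled DLD-1-mAID-mClover-POLR2A(Tet-OsTIR1), a line in which POLR2A (RPB1, the largest subunit of Pol II) carries an auxin-inducible degron and doxycycline induces the plant protein OsTIR1. They were sampled as untreated controls and after doxycycline for 24 h and auxin at 500 µM for 14 h. HCT116 cells carried the degron on TOP2A in all libraries and were sampled as untreated TOP2A-mAID controls and as cells that also lacked TOP2B (TO2B-/--TOP2A-mAID in the genotype field, TOP2Bko in the titles, TOP2B-/- here), whose titles read as control but whose treatment entry reads as 14 h of auxin, which by the treatment protocol followed doxycycline for 24 h and was at 500 µM. That group was therefore defined by genotype, and genotype, auxin and doxycycline cannot be told apart in it. Each group held 2 libraries of asynchronous cells. The labels do not say whether replicates came from separate cultures, whether G1 sorting applied to each group, whether the controls labelled untreated were given doxycycline, or how many clones were used, so p-values measure only the spread between these libraries.

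Total counts were 62626875 and 36906755 in the DLD-1 controls, 14183633 and 10739622 after auxin, and between 32129400 and 36491540 in HCT116. The median read density of 3111 long genes near silence in controls of the other line served as a background, and extended to all models it equalled 2.24% and 9.02% of the counts in the DLD-1 controls, 39.5% and 59.5% after auxin, and between 0.266% and 3.04% in HCT116. Of 8 markers of colorectal epithelium, 8 lay over 2 times background in both DLD-1 controls, 7 and 5 after auxin (KRT20, and then CDX2 and VIL1 too, lay at or under that level), and 6 or 7 in HCT116. The 13 markers of fibroblasts, leukocytes and endothelium summed to 16.3 and 45.9 CPM (counts scaled to a common library size) in the DLD-1 controls and to 225 and 239 CPM after auxin, where 10 were called higher and 0 lower and 2 exceeded 2 times background in each library. COL1A1, PTPRC and CDH5 were among those at or under that level in all 4 DLD-1 libraries. CD14 lay over it in all 4, at 11.2 and 2.96 times background in controls and 4.24 and 2.81 times after auxin. PECAM1 lay over it after auxin, at 4.81 and 2.49 times background. In HCT116, 3 and 6 of the 13 lay over it in controls and 2 in each TOP2B-/- library. COL1A1 there was at 42.3 and 46.6 CPM in controls and 31.1 and 24.7 CPM in the TOP2B-/- group. The part of this background in the results on polymerase genes was not tested beyond the values given with them. Nascent RNA of TOP2B, the gene knocked out per the labels, was 185.7 and 191.7 CPM in HCT116 controls and 134.6 and 131.6 CPM in the TOP2B-/- group (log2 fold change -0.50, SE 0.04, edgeR adjusted p = 0.0269). The labels do not say which part of TOP2B was deleted, so this reads the label in direction only.

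The starts of 3 subunit genes are shown as examples of genes for different enzymes: POLR1C serves Pol I and III, POLR2A Pol II and POLR3A Pol III. They were chosen with the DLD-1 results known, and a relation of these starts to those results was not tested. Each line is the 100 bases before the more upstream of the RefSeq start and the start of the counted model, from RefSeq on GRCh38.p14, read 5′ to 3′ on the gene's strand. Capitals mark the ETS core (CCGGAAG) and the GC box (GGGCGG), short motifs common in promoters of housekeeping genes, on either strand. POLR1C lies at chr6:43516939-43517038 on the plus strand, POLR2A at chr17:7484266-7484365 on the plus strand, and POLR3A at chr10:78029541-78029640 on the minus strand.
POLR1C: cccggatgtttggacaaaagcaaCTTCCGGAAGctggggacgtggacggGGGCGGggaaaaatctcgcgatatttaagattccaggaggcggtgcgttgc
POLR2A: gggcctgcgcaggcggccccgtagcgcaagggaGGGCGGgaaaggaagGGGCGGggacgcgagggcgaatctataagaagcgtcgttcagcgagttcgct
POLR3A: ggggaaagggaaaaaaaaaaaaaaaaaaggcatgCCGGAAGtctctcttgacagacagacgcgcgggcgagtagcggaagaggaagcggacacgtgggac

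A window of 250 bases before the RefSeq start was available for 21 of the 29 genes, and motifs were searched in it on both strands. The GC box occurred in 16 of 21 genes, against 42.6% of all 35116 windows. The ETS core occurred in 8 of 21 (POLR1B, POLR1C, POLR2C, POLR2F, POLR2J2, POLR2J3, POLR3A and POLR3C), against 8.52% of all windows. The NRF1 core (GCGCATGC) occurred in 5 of 21, against 2.63%, and the letters TATAAA in 0 of 21, against 10.7%. Genes with several starts were counted once if any window matched, which raises their share over that of single windows. POLR2J2 and POLR2J3, whose starts are nearly alike, were counted separately among the matches of the GC box, the ETS core and the NRF1 core. These matches describe letters and not bound factors.

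In control cells the subunit genes covered a wide range of nascent RNA per length, given here as TMM-scaled CPM per kb of counted gene, introns included. In DLD-1 the highest were POLR2A (9.29 and 5.95 CPM per kb in controls 1 and 2), POLR2L (7.61 and 6.52) and POLR1C (8.29 and 5.81), whose order did not hold in both replicates. In HCT116 the highest were POLR1C (7.25 and 8.15 CPM per kb) and POLR2L (5.20 and 7.79), which overlapped. The lowest in both lines was POLR2F, at 0.0809 and 0.123 CPM per kb in DLD-1 and 0.145 and 0.146 in HCT116. Its model spans 88253 bp, of which 17822 bp were counted, and overlaps C22orf23 and SOX10 on the other strand.

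By class, the median level in DLD-1 controls was 2.03 CPM per kb for Pol I only, 4.93 for Pol I and III, 2.48 for Pol II only, 3.22 for the common subunits and 0.983 for Pol III only. In HCT116 controls these medians were 2.85, 4.32, 4.04, 4.11 and 1.97 CPM per kb in the same order. Pol III genes thus lay lowest of these 5 classes in both lines. Levels of the 29 genes in the 2 lines ran together (Spearman 0.864, Pearson 0.883 over 29 genes that share the same libraries and gene lengths).

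Some genes departed from the shared order. POLR3G, the Pol III subunit that prevails in proliferating and stem cells over its paralogue POLR3GL, stood at 0.561 and 0.700 CPM per kb in DLD-1 controls and at 2.02 and 2.20 in HCT116 controls. POLR1E stood at 1.53 and 1.25 against 4.19 and 4.71 CPM per kb. POLR1D ran the other way, at 2.74 and 2.88 CPM per kb in DLD-1 and 0.912 and 0.969 in HCT116. The tables of the 2 lines were scaled separately, so these levels were set side by side without a test.

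**Figure D1:**
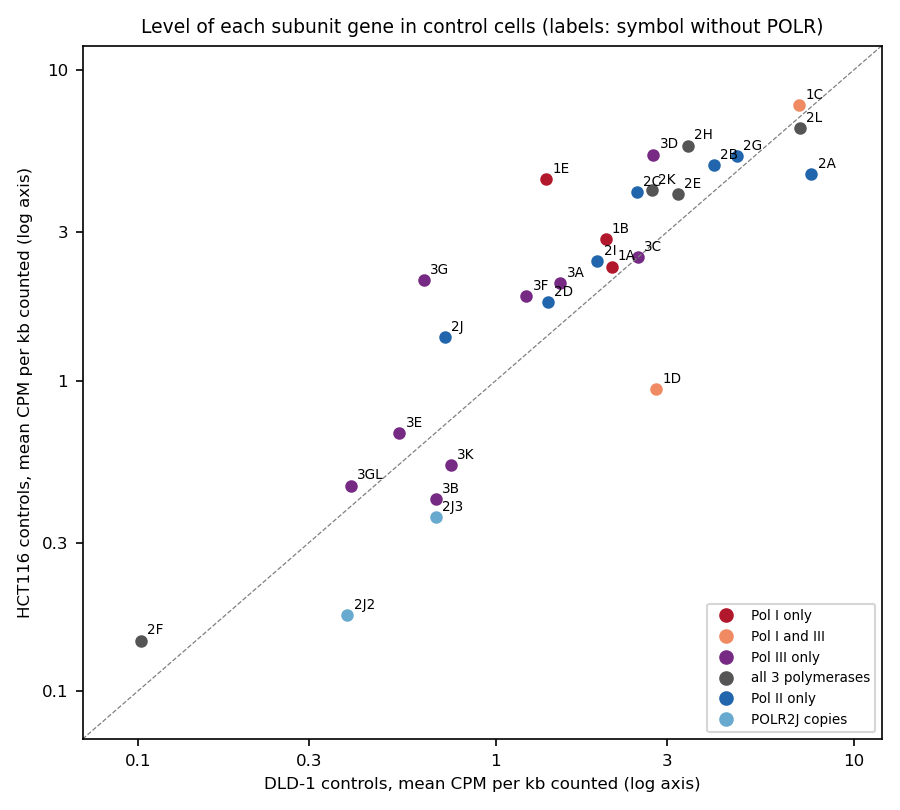
Mean TMM-scaled CPM per kb of counted gene in the 2 control libraries of DLD-1 (x axis, log scale) and of HCT116 (y axis, log scale), 1 point for each of 28 of the 29 subunit genes, coloured by class, with a dashed line of equality. POLR2F lies lowest in both lines, POLR3G and POLR1E lie above the line and POLR1D below it.

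The DLD-1 comparison addressed nascent RNA after treatment meant to deplete RPB1. RPB1 protein was not measured here, and loss of RPB1, auxin and doxycycline cannot be told apart in it. Of the 29 subunit genes, 14 fell and 2 rose after auxin (edgeR quasi-likelihood test, adjusted p under 0.05). Genes of Pol I and Pol III made up most of those that fell: 2 of 3 for Pol I only, 2 of 2 for Pol I and III, and 7 of 10 for Pol III only, beside 1 of 5 common subunits and 2 of 2 POLR2J copies. Of the 7 genes for subunits of Pol II only, 0 were called in either direction, and 0 had an unadjusted p under 0.05 or a call by DESeq2. Across all 17625 genes tested, 35% were called lower and 32.2% higher, so the 14 of 29 that fell stand against a background in which a call of either direction was common. In bulk libraries, fewer transcribing cells and less RNA per cell cannot be told apart.

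Fold changes were relative to TMM scaling, under which the median of all genes was -0.06 on the log2 scale. Scaling by library totals alone moved that median to 0.57, and with it every subunit gene by a like amount. The 14 genes that fell had negative log2 fold changes under every alternative tried. Of these, 7 were still called with library totals alone (19.2% of all genes called lower, 42.8% higher). With upper quartile scaling 9 were still called, where 11108 of 17625 genes were called in either direction.

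**Figure D2:**
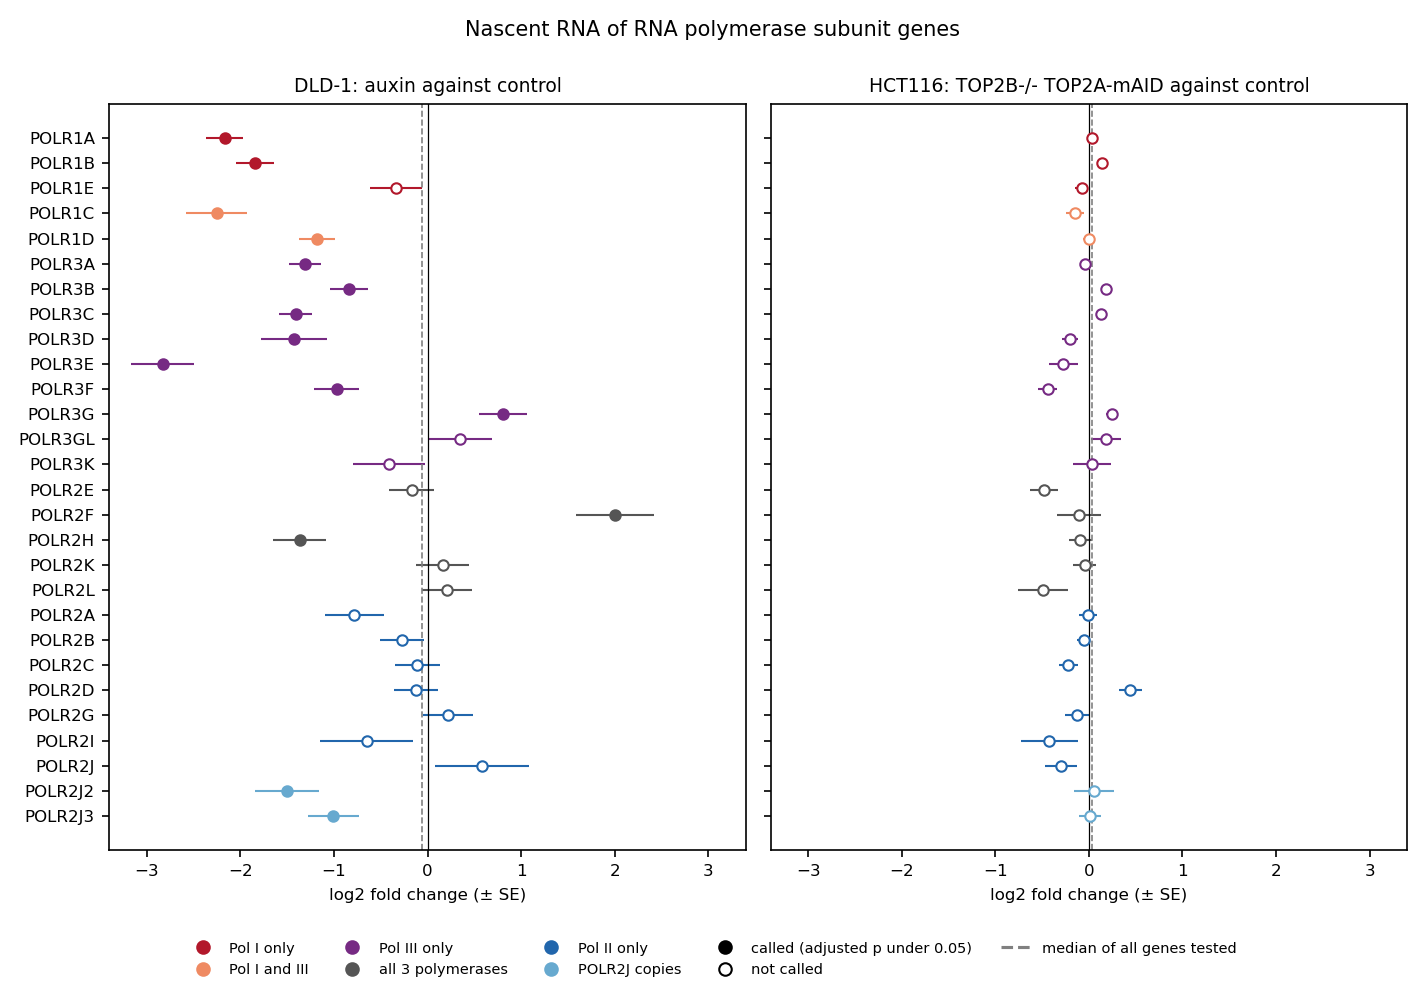
Log2 fold change (x axis) of 28 of the 29 subunit genes (y axis, grouped by class) in DLD-1 (left) and HCT116 (right), with bars of 1 SE, n = 2 libraries per group. Filled points passed an edgeR adjusted p of 0.05, and the dashed line is the median of all genes tested. In DLD-1 the filled points lie among Pol I and Pol III genes, common subunits and POLR2J copies, and in HCT116 none is filled; the signs of POLR1E, POLR2B, POLR2C, POLR2D, POLR2E and POLR3K in DLD-1 turn positive with library totals alone.

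POLR2A, the gene that carries the degron in DLD-1, comes first (chromosome 17, 7484379 to 7514618, plus strand). Its level was 280.9 and 179.9 CPM in controls and 159.4 and 108.0 CPM after auxin. Both auxin libraries lay below both controls, but the controls differed from each other by more than the nearer control and auxin values did. The log2 fold change was -0.78 (SE 0.32, edgeR adjusted p = 0.0773) and was not called. Auxin acts on the tagged protein, so this RNA need not fall with it. Without control replicate 2 it was called (-1.07, SE 0.41, edgeR adjusted p = 0.0134), and after background subtraction the value turned to 0.41 (SE 0.20, edgeR adjusted p = 0.150).

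POLR2B, which encodes the second largest Pol II subunit (RPB2; chromosome 4, 56978640 to 57031162), was at 226 and 201 CPM in controls and 208 and 144 CPM after auxin. The groups overlapped, and its log2 fold change of -0.27 (SE 0.23, edgeR adjusted p = 0.330) was not called. The other Pol II subunits ran from -0.65 for POLR2I (RPB9) through -0.13 for POLR2D and 0.22 for POLR2G, the stalk pair RPB4 and RPB7, to 0.58 for POLR2J (RPB11), and their edgeR adjusted p lay between 0.282 and 0.691. POLR2C, the RPB3 partner of RPB11 in the assembly platform, was at 25.5 and 20.9 CPM in controls and 23.7 and 19.3 CPM after auxin. The median of the 7 was -0.13, near the -0.06 of all genes, and it turned to 0.51 with library totals alone and 0.35 with upper quartile scaling.

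The large subunits of Pol I fell. POLR1A, the largest (chromosome 2, 86026328 to 86106155, minus strand), dropped from 189.5 and 146.6 CPM in controls to 36.97 and 37.7 CPM after auxin. The fall was 4.50-fold, with no overlap (log2 fold change -2.17, SE 0.20, edgeR adjusted p = 0.00421). POLR1B, the second largest (chromosome 2, 112541915 to 112577152, plus strand), was at 76.8 and 66.2 CPM in controls and 17.9 and 22.0 CPM after auxin. Its log2 fold change was -1.84 (SE 0.20, edgeR adjusted p = 0.00478). After auxin POLR1A lay at 1.63 and 1.16 times the background density and POLR1B at 1.79 and 1.53 times it. Background reads thus enter both fold sizes. POLR1E, part of the initiation and elongation heterodimer of Pol I, showed no such drop: it was at 27.1 and 22.1 CPM in controls and 22.98 and 16.1 CPM after auxin (log2 fold change -0.33, SE 0.28, edgeR adjusted p = 0.321), and its sign was positive with library totals alone (0.30), with upper quartile scaling (0.14) and after background subtraction (0.45).

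Both genes of the assembly platform that Pol I shares with Pol III fell. POLR1C, whose start is printed above, went from 37.1 and 26.0 CPM in controls to 7.66 and 5.52 CPM after auxin (chromosome 6, 43517039 to 43521508; log2 fold change -2.26, SE 0.32, edgeR adjusted p = 0.00765). POLR1D went from 128 and 134 CPM to 65.2 and 50.5 CPM (chromosome 13, 27620743 to 27667422; log2 fold change -1.18, SE 0.19, edgeR adjusted p = 0.0104). In neither gene did the groups overlap. Their Pol II counterparts in the platform, POLR2C and POLR2J, were not called. Log2 fold changes were -0.11 for POLR2C (SE 0.24, edgeR adjusted p = 0.691) and 0.58 for POLR2J (SE 0.50, edgeR adjusted p = 0.335). The difference between the 2 platforms was not tested.

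The catalytic pair of Pol III fell as well. POLR3A, the largest subunit (chromosome 10, 77975149 to 78029540, minus strand), was at 89.2 and 75.8 CPM in controls and 34.1 and 32.4 CPM after auxin (log2 fold change -1.31, SE 0.17, edgeR adjusted p = 0.00662). POLR3B, the second largest (chromosome 12, 106357658 to 106510198), was at 100.7 and 106.3 CPM in controls and 49.2 and 66.4 CPM after auxin (log2 fold change -0.84, SE 0.21, edgeR adjusted p = 0.0260). The groups did not overlap for either gene. After auxin both lay near the background density, at 2.21 and 1.47 times it for POLR3A and 1.14 and 1.07 times it for POLR3B, the longest model of the 29 at 152541 bp.

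**Figure D3:**
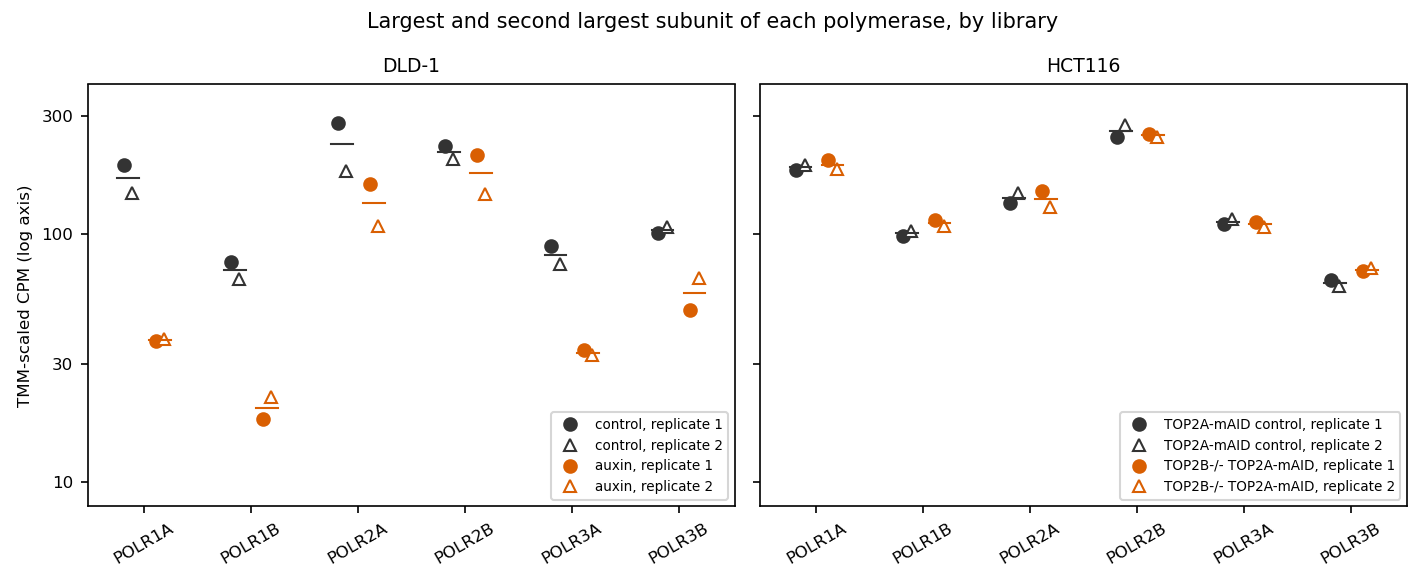
TMM-scaled CPM (y axis, log scale) of the largest (A) and second largest (B) subunit of each polymerase in every library, controls in black and auxin or TOP2B-/- in orange, circles for replicate 1, triangles for replicate 2 and short lines for group means. In DLD-1 (left) both auxin values lie below both controls for POLR1A, POLR1B, POLR2A, POLR3A and POLR3B and overlap for POLR2B, and in HCT116 (right) the groups lie close together for all 6; with library totals alone POLR2B in DLD-1 changes sign.

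The heterodimer of Pol III that aids promoter opening and termination, POLR3D and POLR3E, fell as well. POLR3E had the lowest fold change of all 29 genes: it was at 20.7 and 19.9 CPM in controls and 3.42 and 2.25 CPM after auxin (chromosome 16, 22297375 to 22335103, plus strand; log2 fold change -2.83, SE 0.34, edgeR adjusted p = 0.00540). Its 59 and 31 reads after auxin were 0.320 and 0.147 times the background density over its length, so no size of change above background could be given. POLR3D was at 17.8 and 15.6 CPM in controls and 7.66 and 4.72 CPM after auxin (log2 fold change -1.43, SE 0.35, edgeR adjusted p = 0.0258). After auxin POLR3D lay at 4.45 and 1.92 times the background density, and after background subtraction it was no longer called.

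The start of POLR3E is shown because it was the only one of 21 windows with the letters of a B box (GGTTCGANNCC), the inner promoter element of transfer RNA genes that Pol III itself reads, which occurred in 0.151% of all windows. The 51 bases lie at chr16:22297180-22297230 on the plus strand of GRCh38.p14, the match in capitals ends 198 bases before the RefSeq start, and whether Pol III acts there was not measured.
POLR3E: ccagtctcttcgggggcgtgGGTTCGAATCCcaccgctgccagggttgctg

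The heterotrimer of Pol III that recruits the enzyme to its promoters is formed by POLR3C, POLR3F and either POLR3G or POLR3GL, and its members split. POLR3C fell from 49.96 and 51.7 CPM in controls to 18.8 and 19.4 CPM after auxin (log2 fold change -1.41, SE 0.18, edgeR adjusted p = 0.00588). POLR3F fell from 19.2 and 22.6 CPM to 10.7 and 10.6 CPM (log2 fold change -0.97, SE 0.24, edgeR adjusted p = 0.0261). After auxin POLR3F lay at 2.19 and 1.52 times the background density, and after background subtraction it was no longer called. POLR3G rose, from 22.3 and 27.8 CPM to 50.96 and 36.4 CPM (log2 fold change 0.81, SE 0.26, edgeR adjusted p = 0.0437), and it was the one Pol III gene called higher. POLR3GL was at 4.80 and 6.32 CPM in controls and 7.31 and 6.83 CPM after auxin (log2 fold change 0.35, SE 0.34, edgeR adjusted p = 0.386).

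The ratio of POLR3G to POLR3GL in CPM was 4.64 and 4.40 in controls and 6.97 and 5.33 after auxin, so both auxin libraries lay above both controls. It was not set per length (39689 bp counted for POLR3G and 14146 bp for POLR3GL). After auxin POLR3GL lay at 1.82 and 1.19 times background and POLR3G at 4.52 and 2.26 times, so background enters the ratio. With 2 libraries against 2, an exact two-sided permutation test of such a ratio cannot go below p = 0.333, the value it gave here. POLR3G rose also with library totals alone (1.43) and after background subtraction (1.66, SE 0.21, adjusted p = 0.00692). POLR3C overlaps RNF115 on the other strand, and the sources used here do not say whether counting used strand.

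POLR3K, the small Pol III subunit for RNA cleavage, was at 4.90 and 5.07 CPM in controls and 4.41 and 3.05 CPM after auxin (log2 fold change -0.41, SE 0.38, edgeR adjusted p = 0.368).

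Of the 5 subunits common to all polymerases, 3 were not called. POLR2E, POLR2K and POLR2L (RPB5, RPB12 and RPB10) stood at -0.17, 0.16 and 0.21 as log2 fold changes, and their edgeR adjusted p lay between 0.500 and 0.633. POLR2H (RPB8) fell from 27.0 and 20.5 CPM to 10.2 and 8.14 CPM (chromosome 3, 184361714 to 184368595; log2 fold change -1.37, SE 0.28, edgeR adjusted p = 0.0179). POLR2F (RPB6) was called higher, at 1.44 and 2.19 CPM in controls and 6.62 and 7.92 CPM after auxin (log2 fold change 2.002, SE 0.42, edgeR adjusted p = 0.0181). Its reads after auxin, 114 and 109, were 1.31 and 1.09 times the background density, and after background subtraction it was no longer called (adjusted p = 0.0826).

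Both POLR2J copies fell. POLR2J2 was at 11.0 and 11.5 CPM in controls and 4.64 and 3.27 CPM after auxin (log2 fold change -1.50, SE 0.34, edgeR adjusted p = 0.0219), and POLR2J3 at 24.7 and 22.5 CPM and then 13.6 and 9.81 CPM (log2 fold change -1.01, SE 0.27, edgeR adjusted p = 0.0302). After auxin both were near or under the background density, at 0.559 and 0.275 times it for POLR2J2 and 1.38 and 0.696 times it for POLR2J3. The parent gene POLR2J was at 4.82 and 3.6 CPM in controls and 8.59 and 3.998 CPM after auxin and was not called.

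Some reads of these copies could not be cleanly assigned. Of the 6247 words of 50 bases in the POLR2J2 gene body of GRCh37, which is shorter than the counted model, 90.4% recur in POLR2J3 and 51.6% in POLR2J, and of those of POLR2J 56.1% recur in POLR2J2. Of the 34687 words of POLR2J3, 16.3% recur in POLR2J2 and 9.27% in POLR2J. The counted POLR2J2 model holds 29215 bp, most of it outside the body searched, and other copies were not searched. How much of POLR2J3 is its own is thus not known. The values of POLR2J and POLR2J2 are therefore uncertain, and those of POLR2J3 at least in part. The 100 bases before the starts of the copies, as above, are shown because they differ at only 7 bases, in capitals (GRCh38.p14, minus strand, chr7:102671730-102671829 for POLR2J2 and chr7:102572650-102572749 for POLR2J3, the latter from the RefSeq entry POLR2J3-UPK3BL2).
POLR2J2: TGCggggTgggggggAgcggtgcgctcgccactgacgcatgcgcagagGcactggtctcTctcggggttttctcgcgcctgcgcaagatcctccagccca
POLR2J3: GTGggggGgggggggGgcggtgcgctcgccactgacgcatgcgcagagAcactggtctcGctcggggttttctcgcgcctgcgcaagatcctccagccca

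Set side by side, the classes with Pol I and Pol III genes moved in DLD-1 by more than replicates differed. Over the 4 pairs of an auxin and a control library, the median log2 ratio of Pol I genes ran from -2.07 to -1.57, that of Pol I and III genes from -1.99 to -1.37 and that of Pol III genes from -1.01 to -0.92. That of Pol II genes ran from -0.40 to 0.05 and that of the common subunits from -0.16 to 0.32. The same medians between replicates were at most 0.53 in size. The gap between the class medians was -1.72 for Pol I against Pol II genes and -0.78 for Pol III against Pol II genes. Scaling shifts all classes together, and over all alternatives the gaps ran from -2.69 to -1.43 and from -1.62 to -0.61.

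Ratios of CPM within single libraries do not depend on scaling, though background, which adds reads by length, enters them. POLR1A over POLR2A was 0.675 and 0.815 in controls and 0.232 and 0.349 after auxin. POLR1B over POLR2B was 0.339 and 0.330 in controls and 0.0861 and 0.152 after auxin. POLR3A over POLR2A was 0.317 and 0.421 in controls and 0.214 and 0.3001 after auxin, without overlap, while POLR3B over POLR2B, at 0.445 and 0.530 and then 0.236 and 0.460, overlapped. The exact permutation p was 0.333 for the first 3 ratios, the smallest possible, and 0.667 for the last.

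Seen as reads, the 29 genes took 0.118% and 0.108% of the counts in controls and 0.110% and 0.0925% after auxin. Of these reads, Pol II genes took 38.3% and 34.1% in controls and 49.7% and 43.7% after auxin. Genes of Pol I only took 19.2% and 17.9% in controls and 8.57% and 10.5% after auxin. The share of Pol III genes overlapped between the groups, at 23.5% and 27.3% and then 22.5% and 27.1%.

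**Figure D4:**
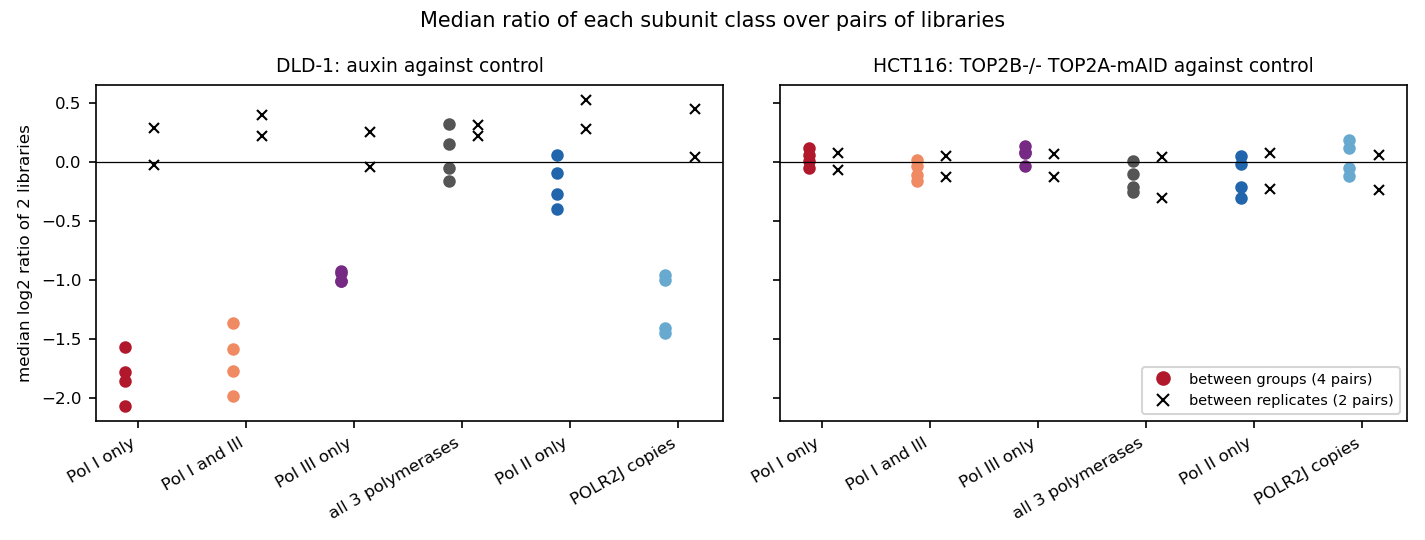
Median log2 ratio of the TMM-scaled CPM of each subunit class (x axis) for pairs of libraries (y axis): dots are the 4 pairs of an auxin or TOP2B-/- library over a control, and crosses the 2 pairs of replicates. In DLD-1 (left) the dots of Pol I, Pol I and III, Pol III and POLR2J copies all lie farther from 0 than every cross, and in HCT116 (right) dots and crosses are of like size; scaling by library totals alone raises every dot in DLD-1 and turns the median of Pol II genes positive.

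Gene length and background differed between the classes and moved with the result. The median counted length was 35238 bp for Pol I only, 19570 bp for Pol III only, 9371 bp for Pol II only and 6882 bp for the common subunits. Over the 29 genes the log2 fold change ran against length at a Spearman correlation of -0.341, compared with -0.139 over all 17625 genes. The lowest and highest density after auxin, in multiples of background, were 1.16 and 4.56 for Pol I only, 0.147 and 4.52 for Pol III only, and 1.69 and 22.3 for Pol II only. Overlap with models on the other strand differed between the classes too. It was present for POLR2B, POLR2C, POLR2I and POLR2J of Pol II and for the common subunits POLR2E and POLR2F. Genes of Pol I only and of Pol I and III overlapped no other model. The part of such overlap in the class gaps was not tested.

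Subtracting the background density from the counts left Pol I and Pol III genes on the low side and moved Pol II genes up, with class gaps of -2.69 and -1.62. Of the 29 genes, 8 were then called lower, against 32.1% of 14355 genes tested, and 8 higher, against 27.7%. POLR1A (-2.82, SE 0.33, adjusted p = 0.00603), POLR1B (-1.80, SE 0.24, adjusted p = 0.00838), POLR1C (-1.34, SE 0.24, adjusted p = 0.0156), POLR3A (-1.17, SE 0.15, adjusted p = 0.00714) and POLR3C (-0.71, SE 0.20, adjusted p = 0.0434) were still called lower in edgeR, with an SE that leaves out the error of the background estimate. The reads left after auxin were 246 and 73 for POLR1A, 137 and 105 for POLR1B and 110 and 51 for POLR1C. They were 321 and 142 for POLR3A and 224 and 153 for POLR3C, so all these sizes depend on the background estimate. POLR3B was called too, but with 101 and 61 reads left after auxin its size, -2.88, also rests on that estimate. POLR3E and POLR2J2 were also called, with 0 reads left in both auxin libraries and thus no size. The other 6 of the 14, POLR1D, POLR2H, POLR3D and POLR3F among them, kept a negative sign but lost the call.

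On this scale 4 of 7 Pol II genes rose (POLR2B, POLR2C, POLR2D and POLR2G, by 0.79 to 1.46), as did 3 of 5 common subunits (POLR2E, POLR2K and POLR2L, by 0.98 to 1.47) and POLR3G. All 8 were called in edgeR with adjusted p between 0.00312 and 0.0322. With the counts as deposited and TMM scaling, POLR3G alone of the 8 was called, and with library totals alone POLR2G, POLR2L and POLR3G were.

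**Figure D5:**
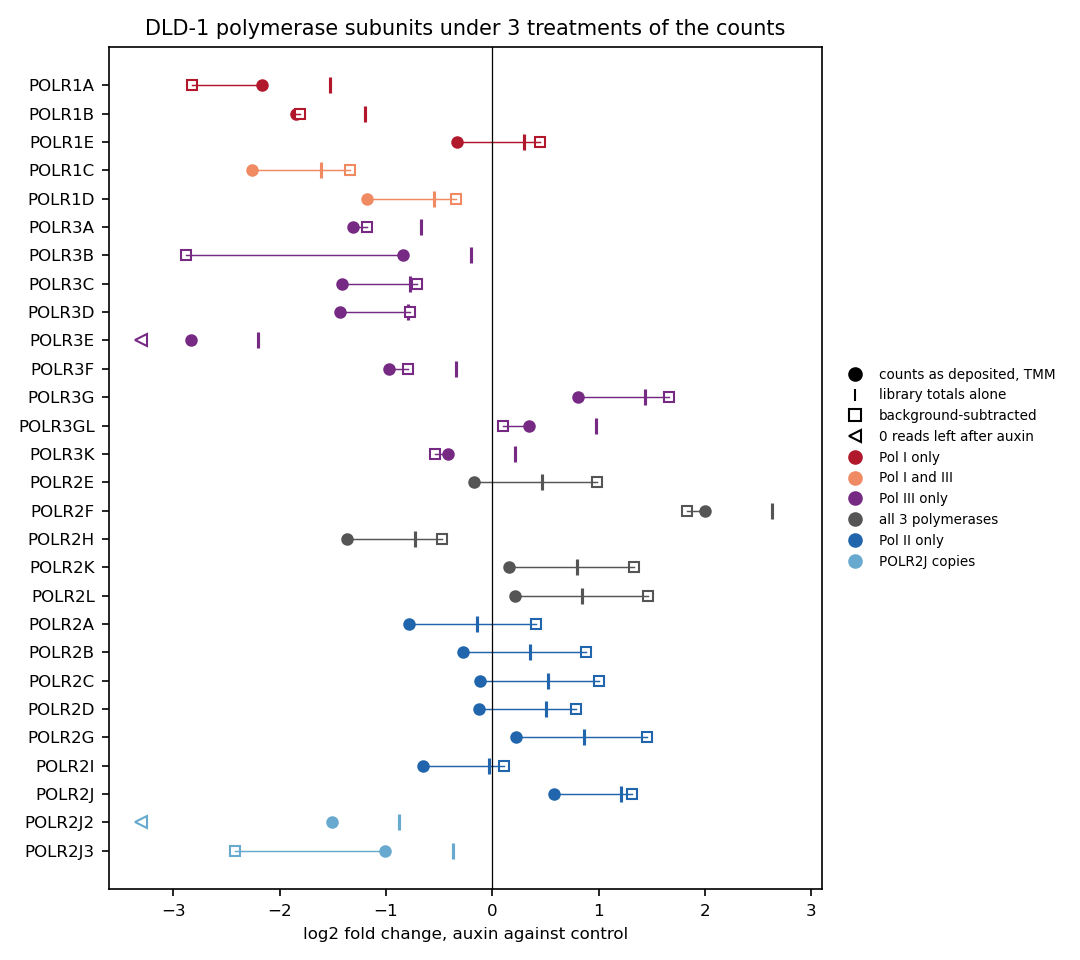
Log2 fold change after auxin in DLD-1 (x axis) of 28 of the 29 subunit genes (y axis) from deposited counts with TMM (dots), with library totals alone (ticks) and from background-subtracted counts (squares), with open triangles for POLR3E and POLR2J2, which had 0 reads left after auxin. Genes of Pol II only and most common subunits move from near or below 0 to above it, while POLR1A, POLR1B, POLR1C, POLR3A, POLR3B and POLR3C stay below 0 under all 3.

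With 1 factor of unwanted variation (RUVs) in DESeq2, 20 of the 29 genes had an adjusted p and 9 had none. POLR1A alone of the 20 was still called (log2 fold change -1.56, DESeq2 adjusted p = 0.0336). Of the 14 genes, 3 (POLR2J2, POLR3D and POLR3E) had no adjusted p there. Leaving out auxin replicate 1, which left 1 auxin library assumed to vary like the controls, kept 4 of the 14 calls (POLR1B, POLR1D, POLR3C and POLR3E) and lost that of POLR1A, and leaving out auxin replicate 2 kept 6. POLR2F and POLR3G were called in neither case, and POLR3G was also lost without control replicate 1.

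The factors that work with the 3 enzymes, from lists chosen with earlier results of these data known, were read in the same way, against the 35% of all genes called lower and 32.2% called higher. Of 8 Pol I factors, 7 fell (median log2 fold change -1.52), led by UBTF, the architectural factor of ribosomal DNA (-2.41, SE 0.18, edgeR adjusted p = 0.00421), and TAF1D (-2.34). Of 16 Pol III factors, 13 fell and 1 rose (median -1.21), led by GTF3C5 (-2.13) and GTF3C2 (-1.98) of TFIIIC. Of 29 general transcription factors of Pol II, 16 fell (median -0.79), led by TAF7 (-1.64) and MNAT1 (-1.62).

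The difference between these lists and the core Pol II subunits was not tested. Of 11 factors of polymerase assembly, 6 fell and 1 rose (median -0.72), led by PIH1D1 (-1.99) and URI1 (-1.85). Of 4 genes of the mitochondrial polymerase, 2 fell, TEFM (-2.25) and POLRMT (-1.92). Of the 4 subunits under older symbols, CD3EAP, a partner of POLR1E (-1.57, SE 0.33, edgeR adjusted p = 0.0188), and CRCP of Pol III (-0.97, SE 0.19, edgeR adjusted p = 0.0152) fell, and TWISTNB and ZNRD1 of Pol I (-0.31 and -1.32) were not called.

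After background subtraction, where 32.1% of all genes were called lower and 27.7% higher, Pol I factors had 6 lower and 1 higher (median -1.45). Pol III factors had 5 lower and 2 higher of 16 (median -0.39), and the general factors of Pol II 10 lower and 7 higher of 29 (median -0.20), so their shares called lower lay near that of all genes. Assembly factors had 5 lower and 3 higher (median -0.01) and mitochondrial polymerase genes 2 lower and 1 higher (median -0.78).

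In HCT116 the question was whether the group labelled TOP2B-/- TOP2A-mAID differed from TOP2A-mAID controls. None of the 29 subunit genes was called by edgeR, while 521 of 15273 genes tested were (1.66% lower and 1.75% higher). An unadjusted p under 0.05 was reached by 5 of 29, compared with 3492 of all genes. The median of the 29 was -0.05 on the log2 scale against 0.03 for all genes, and single genes ran from -0.49 to 0.44. DESeq2 called 2 of 29 lower and 2 higher, where it called 11.9% of all genes lower and 9.65% higher.

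The catalytic subunits differed little. POLR1A was at 181.8 and 190.1 CPM in controls and 197.8 and 183.1 CPM in TOP2B-/- cells, and POLR1B, whose groups did not overlap (0.14, SE 0.05, edgeR adjusted p = 0.225), at 98.1 and 103 CPM and then 114 and 108 CPM. POLR2A was at 133.9 and 145.7 CPM in controls and 149.2 and 128.5 CPM in TOP2B-/- cells, and POLR2B at 245 and 274 CPM and then 254 and 246 CPM. The groups overlapped for POLR1A, POLR2A and POLR2B, and their log2 fold changes were 0.03 (SE 0.06), -0.01 (SE 0.09) and -0.05 (SE 0.07). POLR3A, at 110.0 and 114 CPM and then 112 and 106 CPM, overlapped too, with a log2 fold change of -0.04 (SE 0.05). POLR3B, at 65.3 and 61.5 CPM in controls and 70.9 and 72.7 CPM in TOP2B-/- cells, did not overlap and was not called (0.18, SE 0.05, edgeR adjusted p = 0.153).

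The genes called by DESeq2 and not by edgeR were POLR2D, POLR3G, POLR2E and POLR3F. POLR2D was at 19.5 and 22.9 CPM in controls and 27.7 and 30.1 CPM in TOP2B-/- cells (log2 fold change 0.44, SE 0.12, edgeR adjusted p = 0.142, DESeq2 adjusted p = 0.00389). POLR3G was at 79.98 and 87.4 CPM and then 97.5 and 101.4 CPM (0.25, SE 0.06, edgeR adjusted p = 0.127, DESeq2 adjusted p = 0.00170). In both genes the TOP2B-/- libraries lay above both controls.

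POLR2E was at 31.1 and 39.1 CPM in controls and 26.7 and 23.7 CPM in TOP2B-/- cells (-0.48, SE 0.15, edgeR adjusted p = 0.174, DESeq2 adjusted p = 0.00620). POLR3F was at 30.5 and 33.6 CPM and then 22.5 and 24.8 CPM (-0.44, SE 0.10, edgeR adjusted p = 0.109, DESeq2 adjusted p = 0.000552). POLR3F lies on chromosome 20 (18467389 to 18484648), where the median log2 fold change of 405 genes was -0.56, against medians between -0.17 and 0.17 on the other autosomes, so its value lay near that of its chromosome. POLR2L, at 14.6 and 21.9 CPM and then 14.7 and 11.3 CPM, had the lowest fold change of the 29 (-0.49, SE 0.26, edgeR adjusted p = 0.364), but its groups overlapped.

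By class the medians in HCT116 were 0.03 for Pol I only, -0.07 for Pol I and III, -0.12 for Pol II only, -0.11 for the common subunits, 0.08 for Pol III only and 0.03 for the POLR2J copies. Over pairs of libraries these medians ran from -0.31 to 0.18 between groups, and between replicates they reached 0.30 in size. The classes were thus not told apart from replicate spread. Both libraries of a group lay beyond both of the other in 7 of 29 genes for lower and 7 of 29 for higher, where 27.6% of all genes did so in each direction.

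Of the other named genes, POLR2J2 was at 4.46 and 5.81 CPM in HCT116 controls and 5.61 and 5.03 CPM in TOP2B-/- cells, and POLR2J3 at 12.01 and 13.2 CPM and then 12.6 and 12.8 CPM. POLR3GL was at 6.10 and 6.88 CPM and then 7.66 and 7.05 CPM, and the ratio of POLR3G to POLR3GL was 13.1 and 12.7 in controls and 12.7 and 14.4 in TOP2B-/- cells. POLR3E, the gene with the lowest fold change in DLD-1, was at 23.3 and 27.9 CPM in controls and 23.2 and 19.1 CPM in TOP2B-/- cells and was not called. The groups overlapped for both copies, and for POLR3GL and POLR3E the gap between them was smaller than the difference between replicates.

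Other genes called in DLD-1 had these levels in HCT116. POLR1C was at 32.4 and 36.4 CPM and then 32.5 and 29.7 CPM, POLR1D at 42.6 and 45.2 CPM and then 43.5 and 44.1 CPM, and POLR2H at 35.1 and 43.4 CPM and then 37.5 and 36.3 CPM. POLR3C was at 49.1 and 52.6 CPM and then 56.9 and 54.6 CPM and POLR3D at 30.7 and 34.0 CPM and then 28.2 and 28.0 CPM. POLR2F was at 2.59 and 2.59 CPM and then 2.43 and 2.38 CPM. Their log2 fold changes ran between -0.20 for POLR3D and 0.13 for POLR3C, and groups overlapped for POLR1C, POLR1D and POLR2H and not for POLR2F, POLR3C and POLR3D. The difference between the effects in the 2 lines was not tested, since the treatments differ.

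Across the 29 genes in HCT116, the log2 fold change ran with counted length at a Spearman correlation of 0.540, compared with 0.406 over all 15273 genes. In the lists of polymerase factors edgeR called 1 gene, TAF4, a general transcription factor of Pol II that also lies on chromosome 20 (log2 fold change -0.70, SE 0.05, edgeR adjusted p = 0.0254).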

How the data were processed

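Factory-seq libraries of 2 cell lines, 4 each, were analysed as the raw read counts that the authors deposited for 18638 RefSeq gene models, 1 table per line. Counting covered gene spans, introns included. The submitters' processing notes name STAR, DESeq2 and hg38, without versions, and whether strand was used is not stated in the sources used here. Tables of the authors' fold changes, p-values and normalized values were not used. The accompanying paper reports a different experiment and was used for style alone.

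Each line was fitted on its own 4 libraries over all genes in edgeR 4.0.16 (R 4.3.3) by the quasi-likelihood test, with filterByExpr, TMM scaling, 2 residual degrees of freedom, two-sided tests and Benjamini-Hochberg adjustment at 0.05. All 29 members passed the filter in both lines. Standard errors come from the quasi-likelihood F, CPM are TMM-scaled, and SE and p-values rest on 2 libraries per group. The test was also run on simulated counts with few changed genes and no difference in background between libraries. That setting differs from DLD-1 after auxin, so the run does not bear on the calls there. Background was the median read density over the 20% of models of at least 5000 bp, chromosome Y left out, with the lowest density in the other line's controls. Subtracted counts had a floor of 0. Alternatives were library totals, upper quartile scaling, DESeq2 1.42.0, 1 RUVs factor, no count filter, a mean CPM of at least 5, a fit over all 8 libraries, the replicate number as a block and leaving out each library. The crossed block was added after seeing the data. Sequences and motif windows are RefSeq's on GRCh38.p14, and positions of gene models are those of the tables, counted from 1. Per-library values are given for the A and B subunits of each enzyme, all called members, POLR3G, POLR3GL and the POLR2J copies, and others by ranges or where a sentence singles them out. The values of 1 member are not reported here, though counts and medians over members include it. The symbol rule uses no measured value, but it and the lists were chosen with earlier results of these data known.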

Additional observations from a re-analysis of the deposited data

How the results depend on the processing

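With 2 libraries per group and 2 residual degrees of freedom, the DLD-1 calls rest on both auxin libraries, which were the shallowest and lay closest to background. All 14 genes that fell in DLD-1 stayed below 0 under every alternative run. The number of subunit genes called lower, 14 with TMM, was 1 with 1 RUVs factor, 8 after background subtraction, 9 with the crossed replicate block, 7 with library totals alone, 9 with upper quartile scaling and 4 to 15 when single libraries were left out. The number that rose, 2, became 0 with 1 RUVs factor, 8 after background subtraction, 0 with the crossed replicate block, 4 with library totals alone and 0 to 2 when single libraries were left out. Of all genes, 11855 were called in DLD-1, 1718 with 1 RUVs factor and 2393 to 12732 when single libraries were left out, the lowest without auxin replicate 1 (2393) and auxin replicate 2 (3165). In either direction, 8580 genes were called after background subtraction and 8175 with the crossed replicate block. With library totals alone 10921 were called, and with upper quartile scaling 11108. The causes were not tested.

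In HCT116, 521 genes were called, against 896 with 1 RUVs factor, 3295 with DESeq2, 2289 after background subtraction, 5 in the fit over all 8 libraries, 1221 when genes under a mean CPM of 5 were dropped, and 0 to 2519 when single libraries were left out (0 without either TOP2B-/- library, 2519 without control replicate 1). Of the subunit genes, the number called lower was 2 with DESeq2, 2 after background subtraction, 1 when those genes were dropped and 0 to 2 when single libraries were left out, where POLR2E and POLR3F were called without control replicate 1. The number called higher was 2 with DESeq2, 2 after background subtraction and 1 when those genes were dropped.

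Deviations of same-numbered libraries from their group means correlated at 0.58 in DLD-1 and -0.83 in HCT116 over all genes tested, so the numbers do not show a pairing by themselves. The replicate block called 15 subunit genes lower in DLD-1, POLR2A among them (log2 fold change -0.78, adjusted p = 0.00907), and 0 genes in HCT116. The crossed replicate block, added after seeing the data, called 1808 genes in HCT116, of which 1 was a subunit gene, lower.

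Among genes with an adjusted p, signs that turned belong to genes with no call in TMM-scaled counts. In DLD-1 the 9 genes without an adjusted p with 1 RUVs factor were not followed in that setting. In DLD-1, POLR1E went to 0.353 with 1 RUVs factor, 0.450 after background subtraction, 0.303 with library totals alone, 0.047 on genes with a mean of 5 CPM or more and 0.142 with upper quartile scaling. In the same order POLR2B went to 0.225, 0.884, 0.360, 0.105 and 0.20, POLR2C to 0.486, 1.006, 0.528, 0.274 and 0.365, and POLR2E to 0.375, 0.982, 0.469, 0.215 and 0.307. POLR2D went to 0.792, 0.507, 0.261 and 0.347 in the last 4 of these. POLR2A went to 0.525 with 1 RUVs factor and 0.413 after background subtraction, POLR2I to 0.108 after background subtraction, and POLR3K to 0.216 with library totals alone and 0.058 with upper quartile scaling. In the fit over all 8 libraries POLR2C, POLR2D and POLR2E stood at 0.085, 0.086 and 0.029. With single libraries left out, POLR2C ran from -0.248 to 0.038 and POLR2E from -0.291 to 0.018. In HCT116, signs of single genes were followed only for the A and B subunits, POLR2D, POLR2E, POLR3F and POLR3G. Of all 29 subunit genes there, 18 lay below 0 with TMM and 12 with 1 RUVs factor. POLR2A went to 0.063 with 1 RUVs factor, 0.030 after background subtraction, 0.0135 with library totals alone and 0.033 with upper quartile scaling. POLR2B went to 0.0083 with 1 RUVs factor and POLR3A to 0.0040 with upper quartile scaling. With single libraries left out, POLR1A ran from -0.064 to 0.089 and POLR2A from -0.163 to 0.094.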
